A study of Triticum aestivum with 18 samples.

Results

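C-repeat binding factors (CBF, also called DREB1) are AP2/ERF transcription factors that bind the C-repeat or dehydration-responsive element in the promoters of cold-regulated and dehydrin genes. In Arabidopsis, CBF genes are switched on within hours of chilling by activators such as ICE1, and their products raise the transcription of genes that protect cells against freezing. In wheat and barley the family has multiplied into tandem clusters on the homoeologous group 5 chromosomes, at the frost resistance locus, and its members are sorted into groups such as IIIa, IVb, IVc and IVd by the similarity of their proteins.

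Of 94141 loci in the table, 64 carried a description that names a CBF or a C-repeat binding protein, and the 10 described here were selected on mean level, as the highest over all 18 libraries. The level was FPKM, the fragments per kilobase of transcript scaled to the size of the library, so that levels can be set side by side between loci. A further clause of the rule kept TraesCS5D02G317100 whatever its level, but it was already among the 10. The mean levels chose the loci and are therefore a description. The study picked that one locus as responsive to waterlogging from the same libraries, so its waterlogging values are given without a test.

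The libraries came from germinating seeds of the wheat varieties Bainong607 (BN607), Bainong207 (BN207) and Zhoumai22 (ZM22). In the waterlogging treatment (W72), 50 seeds per beaker stood under 10 cm of water for 72 h and then germinated in a dish for 72 h. In the control treatment (C72), seeds took up water for 24 h and then germinated for 72 h. Each of the 6 groups had 3 libraries, and no cold treatment formed part of the design. The time since the seeds were first wetted therefore differed between W72 and C72 along with the waterlogging itself, and their effects cannot be told apart. The methods also state that seeds under water were kept dark and cooler than during germination. Whether control seeds took up water under the same light and temperature is not stated, so these may differ between W72 and C72 as well. The label gives the tissue as seed, and the methods state that the radicle and coleoptile were taken off before extraction. It is not stated which libraries came from separate beakers, so the p-values measure only the spread between these libraries.

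Summed estimated counts were 68.8 to 108 M (mega) per library. Alpha-amylases, secreted by the aleurone of germinating grain, summed to between 1645 and 42102 FPKM, and histones and mitotic cyclins, which mark dividing tissue, to between 1033 and 23955 FPKM. The gliadin and glutenin storage proteins, of which 19 of 98 loci passed the filter on low values, summed to 0.503 to 530 FPKM, and no locus was described as an oleosin. The library labelled W72_BN207 replicate 1 went against its label. It held none of the 61 transcripts found in the other 5 BN207 libraries alone and all 92 of those found in BN607 libraries alone, so the BN207 results that it moves are given with and without it.

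All 10 loci lay in 3 clusters on IWGSC RefSeq v1.0. The cluster on chromosome 5A held 18 CBF loci, 5 of them described here, over 1.55 Mb between positions 522066500 and 523616562. The cluster on 5B held 14 loci with 3 described here over 1.53 Mb (492782423 to 494316116), and that on 5D held 15 loci with 2 described here over 1.36 Mb (410490700 to 411846097). The other 17 CBF loci were spread over 10 further chromosomes. These counts and spans cover only the loci that the description rule took in. Related loci on 5B and 5D, described in other words, were not counted. Of these, TraesCS5D02G317000 started at 410444168, before the 5D span given here.

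Names are those of the best protein match in the table, and a letter or number in a name need not match the chromosome. On 5A lay TaCBF9 (TraesCS5A02G310100, 522082741 to 522083550), CBFIVd-A22 (TraesCS5A02G310500, 522223637 to 522224855), CBFIVd-4.1 (TraesCS5A02G310700, 522425187 to 522426058), CBFIVc-14.1 (TraesCS5A02G311300, 523015457 to 523016095) and TaCBF6 (MSTRG.22520, TraesCS5A02G312000, 523615616 to 523616562). On 5B lay CBFIVd-B22 (TraesCS5B02G311300, 493085859 to 493086718), CBFIVd-B4 (MSTRG.24499, TraesCS5B02G311400, 493140553 to 493141218) and CBFIVb-21.1 (TraesCS5B02G311600, 493168269 to 493169247). On 5D lay CBFIVd-D9 (TraesCS5D02G317100, 410490700 to 410491759) and CBFIIIa-D6 (MSTRG.26496, TraesCS5D02G318900, 411845139 to 411846097). TaCBF6 and CBFIIIa-D6 closed their clusters at the same end, and CBFIIIa-6.1 (TraesCS5B02G313000, 494315159 to 494316116) closed the one on 5B.

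**Figure D1:**
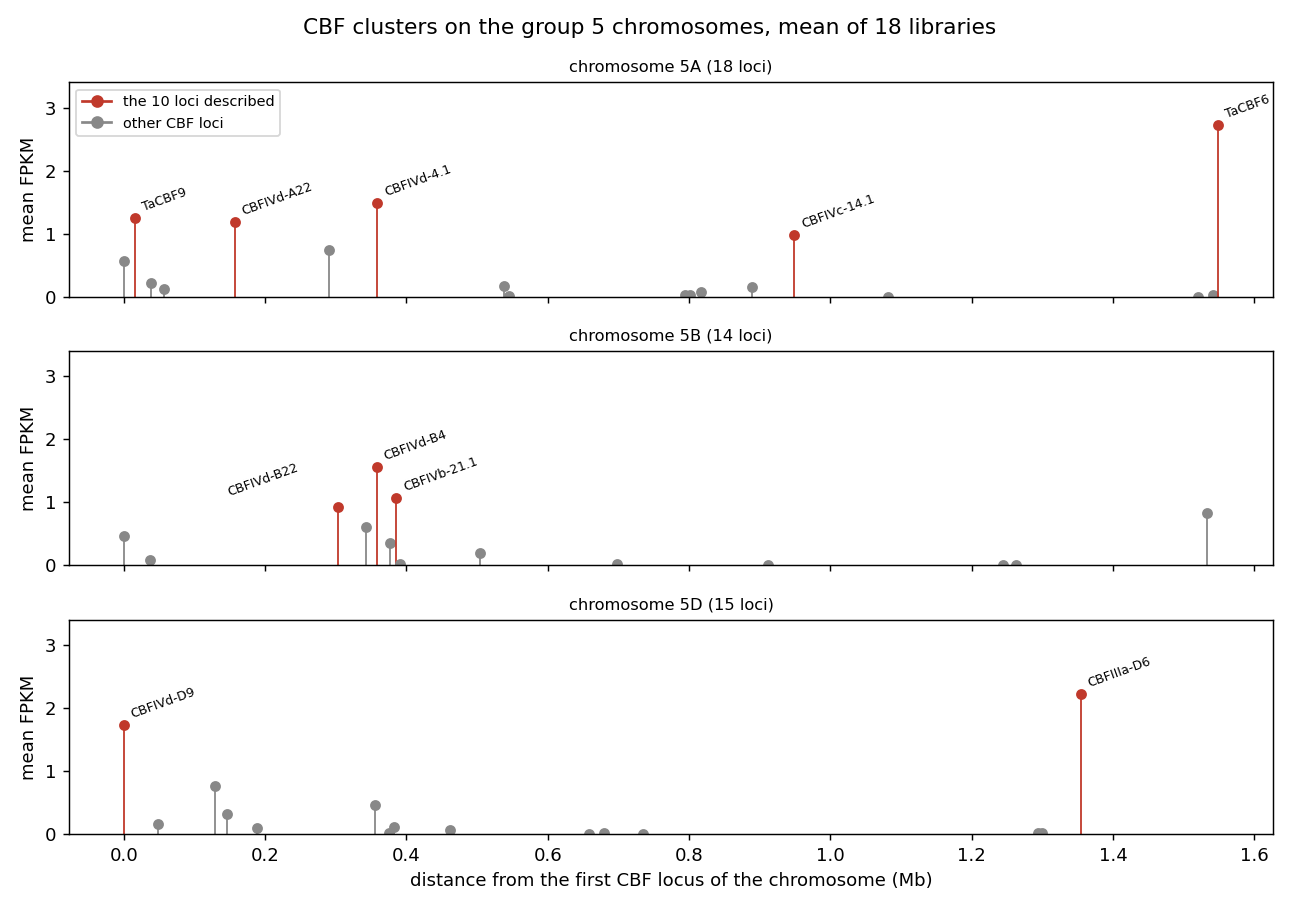
Mean FPKM over 18 libraries of every CBF locus of the description rule on chromosomes 5A, 5B and 5D (vertical axis) against its distance in Mb from the first such locus of that chromosome. Red stems are the 10 loci described and grey stems the other CBF loci, and TaCBF6 and CBFIIIa-D6 stand at the far end of their clusters with means of 2.72 and 2.23 FPKM.

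The CBF transcripts were scarce. Their means over 18 libraries were 2.72 FPKM for TaCBF6, 2.23 FPKM for CBFIIIa-D6, 1.73 FPKM for CBFIVd-D9, 1.56 FPKM for CBFIVd-B4 and 1.48 FPKM for CBFIVd-4.1. The remaining means were 1.25 FPKM for TaCBF9, 1.19 FPKM for CBFIVd-A22, 1.07 FPKM for CBFIVb-21.1, 0.978 FPKM for CBFIVc-14.1 and 0.930 FPKM for CBFIVd-B22. The locus just below these 10 was CBFIIIa-6.1 with 0.829 FPKM. The highest of the 10 stood above 70.0% of the loci in the table and the lowest above 52.8%. Median estimated counts per library ran from 23 to 149, and 8 of the 10 loci were listed at 0 in at least 1 library. A count of 0 leaves room for 3 counts, or 0.0239 to 0.0439 FPKM depending on the locus, and this limit covers counting error only. Because the clusters hold similar copies, reads may have been shared between neighbouring CBF loci, so the split between single copies is uncertain.

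TaCBF6 and CBFIIIa-D6 reached the highest levels of the 10, in few libraries. In BN607, TaCBF6 had 0.207, 0.155 and 0 FPKM in W72, against 0.584, 0.932 and 3.72 FPKM in C72. In BN207 it had 0.644, 0.188 and 1.42 FPKM in W72, against 6.93, 0.193 and 0.750 FPKM in C72. In ZM22 it had 7.55, 0.597 and 3.16 FPKM in W72, against 14.7, 4.79 and 2.44 FPKM in C72. The treatments did not overlap in BN607 and overlapped in the other varieties, where replicate 1 of C72 was the highest library.

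CBFIIIa-D6 peaked in the same libraries. It had 0.298, 0.0386 and 0.0389 FPKM in W72_BN607, against 0.270, 0.662 and 7.17 FPKM in C72_BN607. It had 1.82, 0.223 and 0.654 FPKM in W72_BN207, against 7.53, 0 and 0.497 FPKM in C72_BN207. It had 6.55, 0.0768 and 1.03 FPKM in W72_ZM22, against 8.62, 2.73 and 1.87 FPKM in C72_ZM22. The treatments overlapped in all 3 varieties, and the mean in W72_BN607, 0.125 FPKM, was the lowest of the 6 groups.

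**Figure D2:**
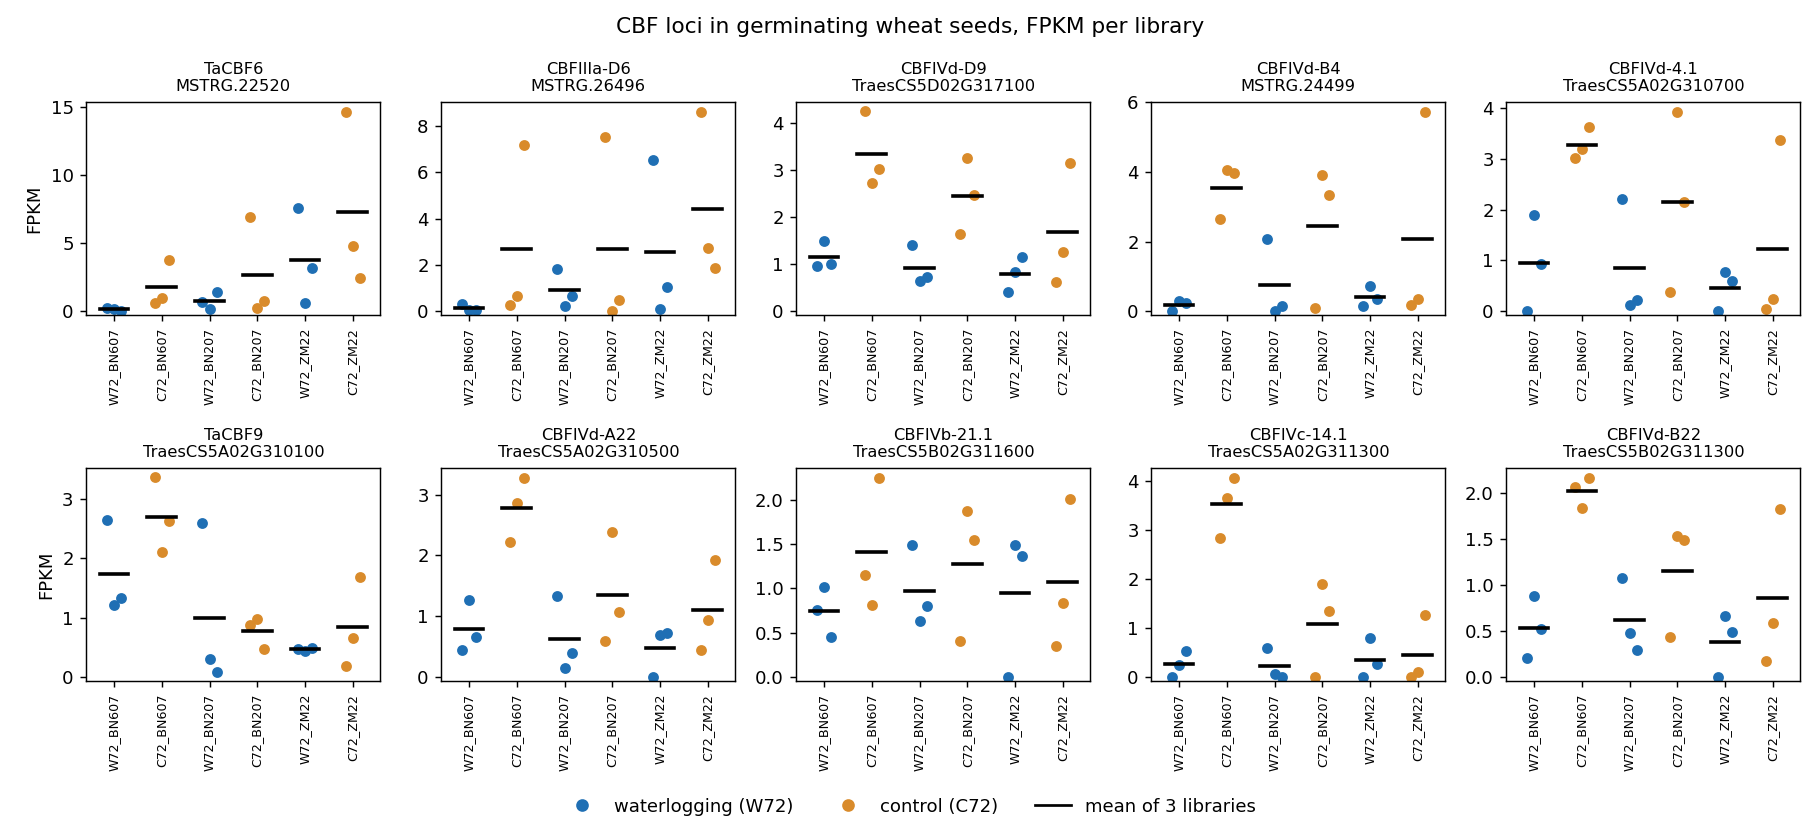
FPKM of the 10 CBF loci (one panel each, linear axes of different height) in the 6 groups; points are libraries in the order of their replicate number, with W72 in blue and C72 in orange, and black lines are means of 3 libraries. In BN607, 7 of the 10 loci have every W72 library below every C72 library (7.95% of all loci tested), and in ZM22 none does (1.57%). The 7 include CBFIVd-D9, which was chosen on such values, and a difference between varieties was not detected.

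By group mean the IVd and IVc loci were highest in C72_BN607 and lower in W72_BN607. Among the W72 groups, W72_BN607 was nonetheless highest for CBFIVd-A22 (0.788 FPKM), CBFIVd-4.1 (0.941 FPKM) and CBFIVd-D9 (1.16 FPKM). It was lowest for CBFIVd-B4 (0.168 FPKM) and between the others for CBFIVc-14.1 and CBFIVd-B22. CBFIVd-B4 had 0, 0.282 and 0.221 FPKM in W72_BN607, against 2.64, 4.05 and 3.96 FPKM in C72_BN607. CBFIVc-14.1 had 0, 0.249 and 0.529 FPKM in W72_BN607, against 2.84, 3.65 and 4.06 FPKM in C72_BN607. CBFIVd-A22 had 0.442, 1.26 and 0.662 FPKM in W72_BN607, against 2.23, 2.86 and 3.28 FPKM in C72_BN607. None of these overlapped between the treatments, and the ratio of group means, C72 over W72, was 21.1 for CBFIVd-B4, 13.6 for CBFIVc-14.1 and 3.54 for CBFIVd-A22. CBFIVd-B22 (0.210, 0.882 and 0.520 FPKM in W72_BN607, against 2.07, 1.83 and 2.17 FPKM in C72_BN607) and CBFIVd-4.1 (0, 1.89 and 0.936 FPKM in W72_BN607, against 3.01, 3.19 and 3.64 FPKM in C72_BN607) did not overlap either.

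In the other varieties the same loci depended on single libraries. CBFIVd-B4 had 2.07, 0 and 0.147 FPKM in W72_BN207, against 0.0912, 3.90 and 3.33 FPKM in C72_BN207. In ZM22 it had 0.137, 0.709 and 0.358 FPKM in W72, against 0.166, 0.335 and 5.73 FPKM in C72. The high library in W72_BN207 was replicate 1, which went against its label, the low one in C72_BN207 was replicate 1, and in ZM22 only replicate 3 of C72 was above 1 FPKM. CBFIVd-4.1, CBFIVc-14.1 and CBFIVd-B22 were also highest in replicate 3 of C72_ZM22, with 3.37, 1.26 and 1.83 FPKM.

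CBFIVd-D9 was the only one of the 10 above 0.4 FPKM in every library. It had 0.959, 1.50 and 1.01 FPKM in W72_BN607, against 4.26, 2.73 and 3.03 FPKM in C72_BN607. It had 1.41, 0.639 and 0.719 FPKM in W72_BN207, against 1.65, 3.27 and 2.46 FPKM in C72_BN207. It had 0.408, 0.832 and 1.14 FPKM in W72_ZM22, against 0.626, 1.27 and 3.16 FPKM in C72_ZM22. The treatments did not overlap in BN607 and BN207 and overlapped in ZM22. The groups ran from 0.795 ± 0.369 FPKM in W72_ZM22, 0.924 ± 0.426 in W72_BN207 and 1.16 ± 0.297 in W72_BN607 to 1.69 ± 1.32 in C72_ZM22, 2.46 ± 0.809 in C72_BN207 and 3.34 ± 0.814 in C72_BN607 (SD, n = 3). Neighbours in that order differed by less than the larger of their SDs, except for C72_BN607 and C72_BN207. Fitted log2 fold changes of W72 over C72 were -1.32 (SE 0.51) in BN607, -1.33 (SE 0.51) in BN207 and -1.11 (SE 0.51) in ZM22, and the value in BN207 was -1.66 without the library labelled W72_BN207 replicate 1.

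TaCBF9 and CBFIVb-21.1 had the smallest fitted differences of the 10 in the average over the varieties, at -0.26 (SE 0.54) and -0.39 (SE 0.63) on the log2 scale, W72 over C72. TaCBF9 had 2.64, 1.21 and 1.34 FPKM in W72_BN607, against 3.36, 2.10 and 2.63 FPKM in C72_BN607, which overlapped. Its level in W72_BN207 was 2.60 FPKM in replicate 1, which went against its label, and 0.310 and 0.0923 FPKM in the other libraries, against 0.870, 0.970 and 0.469 FPKM in C72_BN207. CBFIVb-21.1 ranged from 0 to 2.25 FPKM, and its treatments overlapped in every variety.

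Waterlogging was compared with control in each variety by edgeR's quasi-likelihood test on the counts of 50656 loci, with Benjamini-Hochberg adjustment over all of them. Without CBFIVd-D9, whose choice rested on this contrast, 9 CBF loci remained, and 0 were called at an adjusted p below 0.05 in BN607 (0% of all loci tested), BN207 (0%) or ZM22 (0.00592%), and 0 were called in the average over the varieties (0.00197%). DESeq2 and limma also called 0 in each. At an unadjusted p below 0.05 edgeR found 1 locus in BN607 (2.12% of all loci), 0 in BN207 (1.89%), 0 in ZM22 (1.09%) and 3 in the average (2.72%). The first was CBFIVd-B4 (log2 fold change -4.27, SE 1.82), and 0.555% of all loci passed that limit with lower values in W72_BN607. In the average they were CBFIVd-B4 (-2.73, SE 0.98), TaCBF6 (-2.09, SE 0.87) and CBFIVd-A22 (-1.33, SE 0.62), each with a value below 0, and 1.43% of all loci passed with lower values in W72. None passed the adjustment (adjusted p 1.00 for each). Without the library labelled W72_BN207 replicate 1, 0 were called, while 2 loci in BN207 (3.28% of all loci) and 5 in the average (5.35%) had an unadjusted p below 0.05.

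The fitted values of the CBF loci nonetheless lay mostly on one side. In BN607 all 9 tested loci had a log2 fold change below 0 by edgeR (40.2% of all loci did), with a median of -1.77 beside 0.10 over all loci. The share over all loci depended on the scale. By limma on log2(FPKM + 1), 68.1% of all loci lay below 0 in BN607 (median -0.12), 63.1% in BN207 and 39.5% in ZM22. All 9 CBF loci still lay below 0 in BN607 on that scale. The values that follow are from edgeR. In BN207, 8 of 9 lay below 0 (55.4%), with a median of -1.26 beside -0.05, and TaCBF9 at 0.30 was the exception. Without the library labelled W72_BN207 replicate 1, all 9 lay below 0 (55.8%) and the median was -2.07. In ZM22 all 9 lay below 0 (52.7%), with a median of -1.03 beside -0.02. That value rested on 1 library, since without C72_ZM22 replicate 3 only 5 of 9 lay below 0 and the median was -0.08. These loci share libraries and neighbouring positions and are not independent of each other. CBFIVc-14.1 reached 1 FPKM in C72 libraries only, so for it the filter on low values itself favoured fold changes below 0.

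**Figure D3:**
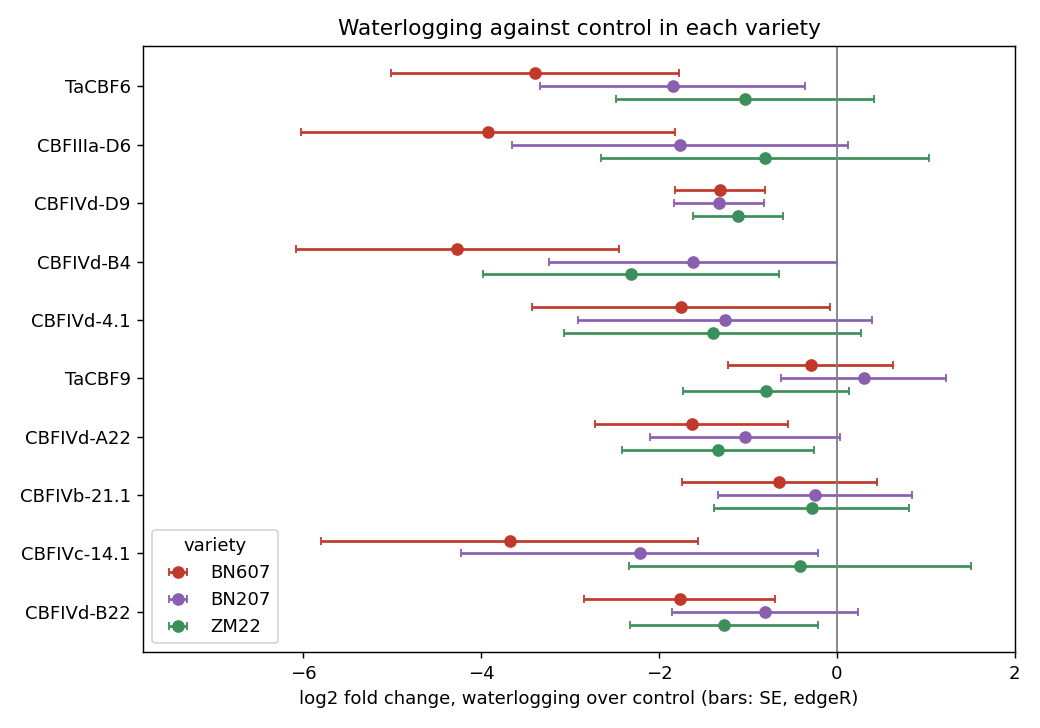
Log2 fold change of W72 over C72 (horizontal axis; points are edgeR estimates and bars their standard errors) for the 10 CBF loci in BN607, BN207 and ZM22. Nearly all estimates lie left of 0, TaCBF9 in BN207 being at 0.30, and the standard errors exceed 0.9 for every locus but CBFIVd-D9.

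The separation of single libraries was also counted. All W72 libraries lay below all C72 libraries for 7 of 10 loci in BN607 (7.95% of all loci tested), for 1 of 10 in BN207 (1.95%) and for 0 of 10 in ZM22 (1.57%), while 0 of 10 lay above in BN607 (1.49%), BN207 (1.66%) or ZM22 (1.83%). The 7 were TaCBF6, CBFIVd-D9, CBFIVd-B4, CBFIVd-4.1, CBFIVd-A22, CBFIVc-14.1 and CBFIVd-B22. CBFIVd-D9 was chosen on such values, and without it 6 of 9 loci were apart in BN607 and 0 of 9 in BN207. The 6 include CBFIVc-14.1, which reached 1 FPKM in C72 libraries only. For that locus the filter on low values itself favoured higher values in C72, so its separation is a description. In BN207, leaving out W72_BN207 replicate 1 gave 4 (9.78%), adding CBFIVd-4.1, TaCBF9 and CBFIVd-A22. Leaving out C72_BN207 replicate 1 gave 5 of 10 (22.9%). In ZM22 the count was 3 without C72_ZM22 replicate 1 (3.59%) and 1 without W72_ZM22 replicate 1 (5.96%). Whether the response differed between varieties was tested as an interaction in the same edgeR fit. Of the 9 loci, 0 were called for BN607 minus ZM22 (0.00395% of all loci), BN607 minus BN207 (0%) or BN207 minus ZM22 (0.00395%). At an unadjusted p below 0.05 there were 0 of 9 in each, beside 1.37%, 1.36% and 1.49% of all loci in the same order. These counts include the library labelled W72_BN207 replicate 1, which went against its label. With any single library left out, that one included, edgeR also called 0 of 9 in each interaction. A dependence on variety was therefore not detected with 3 libraries a group.

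The 10 loci followed 2 patterns over the libraries, a split made after their values were seen. TaCBF6 and CBFIIIa-D6 varied together (Pearson r = 0.92 and Spearman rho = 0.93 on log2(FPKM + 1), n = 18 libraries), and r was 0.93 once group means were removed and 0.94 without W72_BN207 replicate 1. The other 8 loci correlated with each other at r = 0.36 to 0.95 (28 pairs, median 0.86), and with TaCBF6 or CBFIIIa-D6 at r = -0.36 to -0.08. CBFIIIa-6.1 on 5B, which is not one of the 10, went with the first pattern, at r = 0.87 with TaCBF6 and 0.88 with CBFIIIa-D6. These values describe libraries that share groups, sequencing and assembly, and carry no test.

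Summed over the 8 loci of the second pattern, W72_BN607 had 5.00, 8.29 and 5.67 FPKM, against 21.6, 21.2 and 25.0 FPKM in C72_BN607. W72_BN207 had 12.8, 2.39 and 2.65 FPKM, against 4.42, 19.8 and 13.9 FPKM in C72_BN207. W72_ZM22 had 1.02, 6.39 and 5.44 FPKM, against 1.97, 4.97 and 21.0 FPKM in C72_ZM22. The treatments did not overlap in BN607, while in BN207 and ZM22 single libraries crossed over. TaCBF6 and CBFIIIa-D6 together summed to 0.504, 0.194 and 0.0389 FPKM in W72_BN607, against 0.854, 1.59 and 10.9 FPKM in C72_BN607. Their highest sums in the series were 23.3 FPKM in C72_ZM22 replicate 1, 14.5 FPKM in C72_BN207 replicate 1 and 14.1 FPKM in W72_ZM22 replicate 1.

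Histones and mitotic cyclins, which mark dividing tissue, varied with the first pattern in the opposite direction and with the second in the same direction. Over the 18 libraries their summed level, as log2(FPKM + 1), correlated with that of the 8 loci at r = 0.71 (rho = 0.77) and with that of TaCBF6 and CBFIIIa-D6 at r = -0.60 (rho = -0.56). Without the 2 libraries farthest from the median of the marker sum, r was 0.68 and -0.47, and without W72_BN207 replicate 1 it was 0.71 and -0.60. In the 3 libraries with the highest TaCBF6 and CBFIIIa-D6 the markers summed to 1033, 1218 and 1584 FPKM, among the lowest of the 18. In BN607 they summed to 2103, 23955 and 7941 FPKM in W72, against 5596, 12999 and 13515 FPKM in C72, so the marker sums of the treatments overlapped where those of the 8 loci did not. In bulk seed, fewer cells of a type and less RNA per cell cannot be told apart, and the part of dividing tissue in the CBF levels was not tested.

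**Figure D4:**
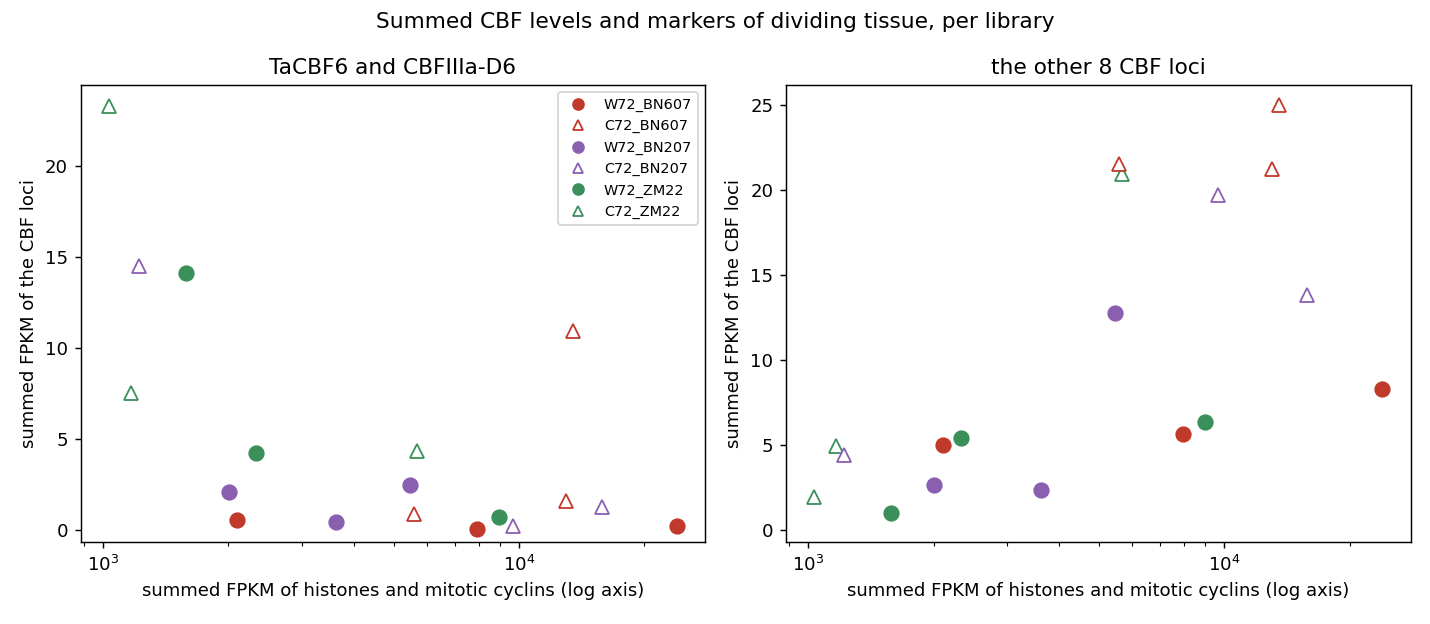
Summed FPKM of TaCBF6 and CBFIIIa-D6 (left) and of the other 8 CBF loci (right) against the summed FPKM of histones and mitotic cyclins (log axis) in 18 libraries; filled circles are W72, open triangles C72, and colours are varieties. On the right the 3 C72_BN607 libraries stand at 21.2 to 25.0 FPKM and the 3 W72_BN607 libraries at 5.00 to 8.29 FPKM.

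Differences between varieties, averaged over both treatments, were tested in the same edgeR fit. Of the 10 CBF loci, 0 were called for BN607 minus ZM22 (10.6% of all loci), BN607 minus BN207 (1.52%) and BN207 minus ZM22 (4.63%), while 2 (27.7%), 0 (9.53%) and 0 (16.8%) had an unadjusted p below 0.05. Without W72_BN207 replicate 1, BN207 minus ZM22 still had 0 called (4.7%). Several of its log2 differences turned sign without that library. They went from 0.62 to -0.85 for CBFIVd-B4, 0.96 to -0.079 for CBFIVd-4.1 and 0.50 to -0.58 for TaCBF9. They went from 0.40 to -0.12 for CBFIVd-A22 and 0.37 to -0.98 for CBFIVc-14.1. For BN607 minus BN207, CBFIVd-B4 went from -0.97 to 0.49. TaCBF6 was lowest in BN607, with a log2 difference of -3.74 (SE 1.15, edgeR adjusted p = 0.0513) to ZM22, and every W72_BN607 library lay below every W72_ZM22 library, as did 9.17% of all loci. TaCBF9 pointed the other way, at 1.69 (SE 0.67, edgeR adjusted p = 0.123). It was higher in every BN607 library than in any ZM22 library of the same treatment. So were 7.56% of all loci in W72 and 25.2% in C72. DESeq2 called both CBF loci (adjusted p 0.00141 for TaCBF6 and 0.0476 for TaCBF9). It also called 20% of all loci in this comparison, so 2 of 10 CBF loci was no more than the share over all loci.

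Against BN207, TaCBF9 was 1.20 higher in BN607 (SE 0.66, edgeR adjusted p = 0.665). Without the library labelled W72_BN207 replicate 1 the difference was 2.27 and was called by edgeR (adjusted p = 0.0405), beside 4.11% of all loci in that fit. In C72, TaCBF9, CBFIVc-14.1 and CBFIVd-B22 were higher in every BN607 library than in any BN207 library, 3 of 10 loci beside 17.5% of all loci. Between C72_BN607 and C72_ZM22, the same 3 loci and CBFIVd-A22 were apart in the same direction, 4 of 10 beside 25.2% of all loci.

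Factors that act on CBF genes or its protein partners were sought by description, as ICE1, calmodulin-binding transcription activators, HOS1, phytochrome-interacting factors, SAPK kinases and MYB repressors. Of 35 such loci 28 were tested, and edgeR called 0 in either direction under waterlogging in every variety, with 4 of 28 higher in BN607 (2.12% of all loci in either direction), 1 higher in BN207 (1.89%) and 0 in ZM22 (1.09%) at an unadjusted p below 0.05. Their median log2 fold changes were 0.32 in BN607, 0.14 in BN207 and -0.01 in ZM22, beside 0.10, -0.05 and -0.02 over all loci, and the BN207 value was 0.25 without the library labelled W72_BN207 replicate 1. The most abundant were 2 loci described as SAPK2 (TraesCS2D02G170600 with 52.5 FPKM and TraesCS2B02G189500 with 50.2 FPKM) and 1 described as SAPK8 (TraesCS5A02G401700, 41.5 FPKM), kinases of abscisic acid and osmotic signalling in rice. The 3 differed between W72 and C72 by -0.67 to 0.78 on the log2 scale.

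Of 32 other DREB loci 8 were tested, and 0 were called under waterlogging in either direction, nor did any reach an unadjusted p below 0.05 in a single variety. Their medians were 0.11 in BN607, -0.22 in BN207 (-0.042 without W72_BN207 replicate 1) and -0.37 in ZM22. DREB transcription factors 3A (TraesCS1B02G235100, 15.9 FPKM) and 4B (TraesCS1A02G221900, 14.5 FPKM) stayed between -0.12 and 0.23 in every variety. TaDREB2 (MSTRG.13354, TraesCS3B02G158800), a factor of the dehydration response, was as scarce as the CBF loci and had 0, 1.94 and 0.620 FPKM in W72_BN607, against 2.99, 5.81 and 5.74 FPKM in C72_BN607. Its treatments did not overlap in BN607, where 7.95% of all loci tested were apart in that direction. The fitted log2 fold change of TaDREB2 was -2.42 (SE 1.77, edgeR adjusted p = 1.00). Over the 18 libraries it went with the sum of the 8 CBF loci of the second pattern (on log2(FPKM + 1), r = 0.92, rho = 0.90).

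The downstream list held dehydrins, cold-regulated proteins and galactinol synthases, 50 of 72 of them tested, and edgeR again called 0 under waterlogging in either direction, with 0 of 50 in BN607 (2.12% of all loci in either direction), 5 higher in BN207 (1.89%) and 1 lower in ZM22 (1.09%) at an unadjusted p below 0.05. Their medians were -0.31 in BN607, 2.18 in BN207 (2.68 without W72_BN207 replicate 1) and -0.24 in ZM22, beside 0.10, -0.05 and -0.02 over all loci. The value in BN207 rested on W72_BN207 replicate 2, in which the 50 loci summed to 5521 FPKM, against 228 and 108 FPKM in the other W72_BN207 libraries and 252 to 297 FPKM in C72_BN207. Without it the median was -1.29, and 44 of 50 loci lay below 0. Dehydrin 1 (TraesCS5B02G426800), a protein of desiccation tolerance, had 1.54, 804 and 5.31 FPKM in W72_BN207, against 8.86, 1.55 and 13.8 FPKM in C72_BN207. The summed level of the 8 CBF loci in W72_BN207 replicate 2 was 2.39 FPKM. It was nearly the same in replicate 3, at 2.65 FPKM, where the 50 loci summed to 108 FPKM.

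The dehydrins differed among themselves in how they followed the CBF loci. The cold acclimation protein WCOR410c (MSTRG.29521, TraesCS6B02G273400), a dehydrin of the plasma membrane, had 9.85, 45.4 and 59.5 FPKM in W72_BN607, against 80.3, 79.3 and 66.9 FPKM in C72_BN607. The treatments did not overlap, and 7.95% of all loci tested were apart in that direction. The fitted log2 fold change of WCOR410c in BN607 was -0.91 (SE 0.87, edgeR adjusted p = 1.00). It correlated with the sum of the 8 CBF loci at r = 0.85 (rho = 0.89, n = 18). YSK2 dehydrin 3 (MSTRG.31344, TraesCS6D02G332900), which averaged 82.0 FPKM, correlated with the same sum at r = -0.54 and dehydrin 1 at r = -0.58.

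Among all 50656 loci tested, the pattern of TaCBF6 over the 18 libraries was closest to that of a WRKY transcription factor (MSTRG.29100, TraesCS6B02G175100, Pearson r = 0.97 on log2(FPKM + 1)) and of an FLS2-type receptor kinase (MSTRG.6654, TraesCS2A02G461800, r = 0.96). The next were TraesCS3B02G471300, TraesCS2D02G392500 and TraesCS2B02G413200, which have no named function in the table, at r = 0.95 each. Closest to CBFIVd-D9 was CBFIVd-B22 (r = 0.933), itself a CBF locus described here, and CBFIVd-A22 stood at r = 0.908. Outside the CBF loci described here, the closest was TraesCS7A02G558400 (r = 0.928, no named function). It was followed by a light-inducible protein CPRF2 (TraesCS5A02G057500, r = 0.92), the sodium transporter HKT8 (TraesCS4D02G361300, r = 0.91) and a protein described as freezing-induced 1 (TraesCS7D02G422400, r = 0.91). The fifth outside those CBF loci was TraesCS5D02G317700, described as a putative CRT/DRE-binding factor (r = 0.91).

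That locus lay on 5D (410842386 to 410843365), within the CBF cluster, but its wording was not covered by the rule. With a mean of 2.29 FPKM it would have ranked second, behind TaCBF6. It had 2.29, 3.01 and 1.54 FPKM in W72_BN607, against 4.42, 2.58 and 4.67 FPKM in C72_BN607, and the treatments overlapped. It had 2.48, 0.788 and 1.22 FPKM in W72_BN207 against 2.14, 4.64 and 3.20 FPKM in C72_BN207, and 0, 0.709 and 1.20 FPKM in W72_ZM22 against 0.253, 1.32 and 4.77 FPKM in C72_ZM22. In all, 8 loci were described as CRT/DRE or C repeat-binding factors in words that the rule missed, and 7 of them had a mean below 1 FPKM.

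The other 54 CBF loci were scarcer still. Their means had a median of 0.0740 FPKM, 31 were below 0.1 FPKM, 2 were at 0 in every library, and 7 passed the filter on low values. The 7 were CBFIIIa-6.1, CBFIVd-D22 (TraesCS5D02G317400), CBFIVa-A2 (TraesCS5A02G310600), a partial CBFIVa-2.2 (TraesCS5B02G311380), TraesCS5A02G310000, the HvCBF7-like TraesCS6A02G251100 and MSTRG.31692 (TraesCS7A02G057800). The first 4 had every W72_BN607 library below every C72_BN607 library (4 of 7, beside 7.95% of all loci tested), and 0 of 7 were apart in that direction in BN207 (1.95%) or ZM22 (1.57%). CBFIVa-A2 passed the filter only through its C72_BN607 libraries (1.49, 2.23 and 2.67 FPKM), and the partial CBFIVa-2.2 reached 1 FPKM in C72 libraries only. For these loci the filter itself favoured higher values in C72, so the count of 4 is a description. Fitted log2 fold changes lay below 0 for 5 of the 7 in BN607, 5 in BN207 and 7 in ZM22, and edgeR called none, with none at an unadjusted p below 0.05 in any variety.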

How the data were processed

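RNA sequencing libraries of germinating wheat seeds (18 libraries, 6 groups of 3) were analysed from the table deposited by the authors. The authors aligned reads with HISAT and assembled transcripts with StringTie (versions not given in the sources used here) on IWGSC RefSeq v1.0. The deposited FPKM values were made by the authors for each locus and library. The deposited expected counts, whole numbers without normalization, are estimates from coverage: 49.0% of counts from 1 to 19 were multiples of 4, beside 21.1% for an even spread, so counting intervals understate their error. Columns with the authors' own fold changes and p-values were not used.

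Loci that reached 1 FPKM in 3 or more libraries (50656) were tested on counts with edgeR 4.0.16 in R 4.3.3 (TMM scaling, quasi-likelihood, 1 mean per group, Benjamini-Hochberg over all tested loci). The common biological coefficient of variation was 0.676. Alternatives used DESeq2 1.42.0, limma 3.58.1 on log2(FPKM + 1) or log2(FPKM + 0.1), counts divided by 4, no filter, a replicate block and each library left out. All CBF loci of the rule were named, with the 3 most abundant tested loci of each pathway list. The 5 nearest patterns were listed for 2 of the CBF loci, leaving out the CBF loci described here. Members and lists were chosen with earlier results of these data known. No sequence was used here.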

Additional observations from a re-analysis of the deposited data

How the results depend on the processing

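Under waterlogging, edgeR called none of the 9 tested CBF loci in any variety or in the average under any alternative run, and the log2 fold changes in BN607 and in the average kept their sign in all 500 alternative values. Over all comparisons 51 of 1750 alternative values changed sign. None of those was called, and their causes were not tested.

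For BN607 minus ZM22 the count of CBF loci called, of 10, was 1 with DESeq2 size factors (10.8% of all loci), 2 with the DESeq2 Wald test (20%), 1 with counts divided by 4 (11.6%), 1 with limma on log2(FPKM + 1) (11.8%) and 1 on log2(FPKM + 0.1) (11.3%), and 0 to 1 with a library left out (5.54% to 19%). For BN607 minus BN207 it was 0 to 1 with a library left out (0.602% to 4.11%). TaCBF6 (adjusted p 0.0513 by edgeR) was called without W72_ZM22 replicate 2 (0.041), C72_ZM22 replicate 3 (0.0339), C72_BN207 replicate 1 (0.0282) or C72_BN207 replicate 2 (0.0438). The count of loci whose W72 libraries all lay below C72, with a library of the variety left out, was 7 to 9 of 10 in BN607 (10.9% to 20.3% of all loci), 1 to 5 in BN207 (3.003% to 22.9%) and 0 to 3 in ZM22 (2.91% to 5.96%). That alternative was chosen after seeing the data, as was CPM (counts scaled to the library total) in place of FPKM, which gave 7 (7.76%), 1 (1.91%) and 0 (1.60%). The 10 loci counted include CBFIVd-D9, which was chosen on such values, and CBFIVc-14.1, which reached 1 FPKM in C72 libraries only. With every library kept and FPKM used, the 1 locus apart in BN207 was CBFIVd-D9.

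Single fold changes turned with limma as follows. On log2(FPKM + 0.1) they were 0.088 for CBFIVc-14.1 in ZM22, 0.013 for CBFIIIa-D6 in BN207 and -0.49 for TaCBF9 in BN207, which was -0.023 on log2(FPKM + 1). For BN607 minus ZM22, log2(FPKM + 1) and log2(FPKM + 0.1) gave 0.39 and 0.54 for CBFIVd-B4 and 0.094 and 0.46 for CBFIVb-21.1. For BN607 minus BN207 they gave 0.14 and 0.34 for CBFIVd-B4.

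Replicate numbers were no evidence of pairing, since same-numbered libraries of a variety deviated together (r above 0.1) in 3 of 9 pairs, from -0.51 to 0.58. A replicate block called no CBF locus in any comparison. It turned CBFIVc-14.1 in ZM22 to 0.15, CBFIIIa-D6 in BN207 to 0.81, TaCBF9 in BN207 to -0.74, CBFIVb-21.1 for BN607 minus ZM22 to 0.21 and CBFIVd-4.1 for BN607 minus BN207 to -0.33.

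With a library left out, fold changes in ZM22 ran from -2.17 to 0.082 for TaCBF6, -3.16 to 0.24 for CBFIIIa-D6, -2.85 to 0.34 for CBFIVd-B4, -1.96 to 1.32 for CBFIVd-4.1, -0.81 to 0.31 for CBFIVb-21.1 and -1.54 to 2.32 for CBFIVc-14.1. In BN207 they ran from -2.90 to 0.98 for TaCBF6, -2.62 to 2.05 for CBFIIIa-D6, -1.86 to 0.82 for TaCBF9 and -0.62 to 0.14 for CBFIVb-21.1. For BN207 minus ZM22 they ran from -3.04 to 0.042 for CBFIIIa-D6, -0.85 to 1.94 for CBFIVd-B4, -0.079 to 2.31 for CBFIVd-4.1, -0.58 to 0.86 for TaCBF9, -0.12 to 0.71 for CBFIVd-A22, -0.075 to 0.51 for CBFIVb-21.1 and -0.98 to 1.73 for CBFIVc-14.1. For BN607 minus ZM22 they ran from -0.68 to 0.97 for CBFIVd-B4 and -0.34 to 0.25 for CBFIVb-21.1. For BN607 minus BN207 they ran from -2.87 to 0.29 for CBFIIIa-D6, -1.29 to 0.49 for CBFIVd-B4, -0.38 to 1.20 for CBFIVd-4.1 and -0.13 to 0.40 for CBFIVd-B22. Where a group was left with 2 libraries, its spread was taken from all groups.

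Median estimated counts were 23 to 149 per library, and standard errors were above 0.9 for all but CBFIVd-D9 in each variety. What limited the detection of waterlogging changes in single CBF loci of 1 variety was not tested.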
